A study of Homo sapiens with 5 samples.

Results

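Iron handling in *MTSS1* knockout cells was examined through 10 genes of iron uptake, storage, export and regulation, chosen by name and read from their Ensembl rows in a table of 27328 genes. All 10 had a row. They were *TFRC* and *SLC11A2* (uptake), *FTH1*, *FTL* and *NCOA4* (storage and its release), *SLC40A1* (export), *IREB2* and *ACO1* (regulation), *HMOX1* (heme breakdown) and *SLC25A37* (mitochondrial import). The cells were TF-1, an established human line of acute myeloid leukemia (AML) with erythroid features that is grown with the cytokine GM-CSF. The control group was 2 pools transduced with Cas9 and sgCtrl, a guide RNA against the *Renilla luciferase* gene, which human cells lack, and the knockout group was 3 pools with Cas9 and sgMTSS1_1, sgMTSS1_2 or sgMTSS1_3. Each library came from a pool of 4 single-cell clones of untreated cells, and each knockout pool carried its own guide RNA, so guide and pool cannot be told apart. Another sgCtrl pool and a pool with a further *MTSS1* guide RNA, which the methods describe as left out after an outlier test, were not analysed here. The p-values below measure the spread between these pools.

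Cells take up iron mainly as transferrin, which binds the transferrin receptor and is carried into endosomes. Iron that is not used is stored inside ferritin, a shell of heavy and light chains, and leaves the cell through ferroportin. When iron is scarce, the iron regulatory proteins IRP1 and IRP2 bind hairpins called iron-responsive elements (IREs) in mRNA. Binding in a 5′ UTR blocks translation, as for ferritin, and binding in the 3′ UTR of the receptor mRNA protects it from decay. The mRNA levels measured here can therefore follow IRP binding for the receptor, but they do not show control of translation. Erythroid cells are known for high receptor levels, since most of their iron goes to mitochondria for heme.

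Letters that match a strict form of these elements are shown for the members that hold such a match. Elements with another loop or imperfect pairing would not be found. A search for an unpaired C, 5 bases, the loop CAGTGN and 5 bases able to pair with the first 5 (G-T pairs allowed), on the sense strand of the canonical transcripts of GENCODE 44 (GRCh38), found 7 matches in 4 of the 10 members. In the lines below, capitals mark the unpaired C and the 6 bases of the loop, and the printed strand is that of the mRNA. The 4 *TFRC* matches lie in its 3′ UTR on the minus strand at chr3:196050978-196051007, chr3:196050574-196050603, chr3:196050509-196050538 and chr3:196050462-196050491. The 3 others lie in the 5′ UTR, of *FTH1* at chr11:61967573-61967602 (minus strand), of *FTL* at chr19:48965335-48965364 (plus strand) and of *SLC40A1* at chr2:189580660-189580689 (minus strand).
TFRC site 1: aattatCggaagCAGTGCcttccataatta
TFRC site 2: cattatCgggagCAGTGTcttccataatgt
TFRC site 3: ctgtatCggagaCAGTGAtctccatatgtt
TFRC site 4: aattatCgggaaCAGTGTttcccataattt
FTH1 site 1: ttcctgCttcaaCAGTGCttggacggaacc
FTL site 1: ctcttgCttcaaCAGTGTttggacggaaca
SLC40A1 site 1: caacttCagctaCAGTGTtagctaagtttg
Over all 20046 protein-coding canonical transcripts, 262 (1.31%) held a match anywhere and 141 (0.703%) held one outside the coding sequence. A match describes letters, not binding, and *SLC11A2*, *IREB2*, *ACO1*, *HMOX1*, *NCOA4* and *SLC25A37* had none in this one transcript.

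The libraries held 2849979 and 3408827 counts in the control and 5442639 to 8854899 in the knockout group, so that every knockout library was deeper than both controls, and depth and genotype cannot be told apart. All 10 markers set for TF-1 identity (*CD34*, *CD33*, *KIT*, *GATA1*, *EPOR* and others) had at least 3 counts in every library. Of the markers of other cell types other than the endothelial and myeloid *PECAM1*, 7 had a row, and they summed to 9.38 and 12.8 CPM (a gene's count scaled to the library's total) in the controls and 3.89 to 5.96 CPM in the knockouts with 2 at 0 in each library. *PECAM1* stood at 144 and 116 CPM in the controls and at 201, 238 and 199 CPM in the knockouts, every knockout pool above both controls. *MTSS1* itself stood at 204 and 87.9 CPM in the controls and 104, 139 and 49.9 CPM in knockout pools 1, 2 and 3. It did not separate the groups (log2-fold change -0.58 ± 0.47 SE, adjusted p = 0.494, edgeR), so its mRNA is no check of the labels. A Cas9 cut in the coding sequence need not lower this mRNA. Per the study's methods, loss of the MTSS1 protein in the pooled knockout clones was checked by immunoblot. Counts of ribosomal protein genes made up 7.55% and 9.3% of the controls and 11.9% to 17.7% of the knockouts, and mitochondrially encoded genes 13.9% and 8.63% against 6.71% to 7.44%.

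Of the 9 members that could be tested, 0 passed the test for a change between knockout and control (a fold change beyond 1 or -1 on the log2 scale with an adjusted p under 0.05, edgeR quasi-likelihood test with Benjamini-Hochberg adjustment over 14391 genes). Of all tested genes, 745 (5.18%) passed, 600 (4.17%) higher and 145 (1.01%) lower in the knockout. DESeq2 and limma-voom also called 0 members. At an unadjusted p under 0.05 there were 2 members, *TFRC* and *NCOA4*, against 23.3% of all tested genes. The same 2 were the members with every knockout pool above both control pools, an order found for 22.2% of all tested genes, and 0 members had every knockout pool below both, against 19.2%. The median log2-fold change was 0.20 over the 9 members and -0.03 over all tested genes. CPM values are scaled by TMM, a normalization between libraries, and since each read of these libraries comes from an mRNA's 3′ end, they follow the number of mRNAs and not their length. In pools of cells, less mRNA per cell and fewer cells with it cannot be told apart.

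**Figure D1:**
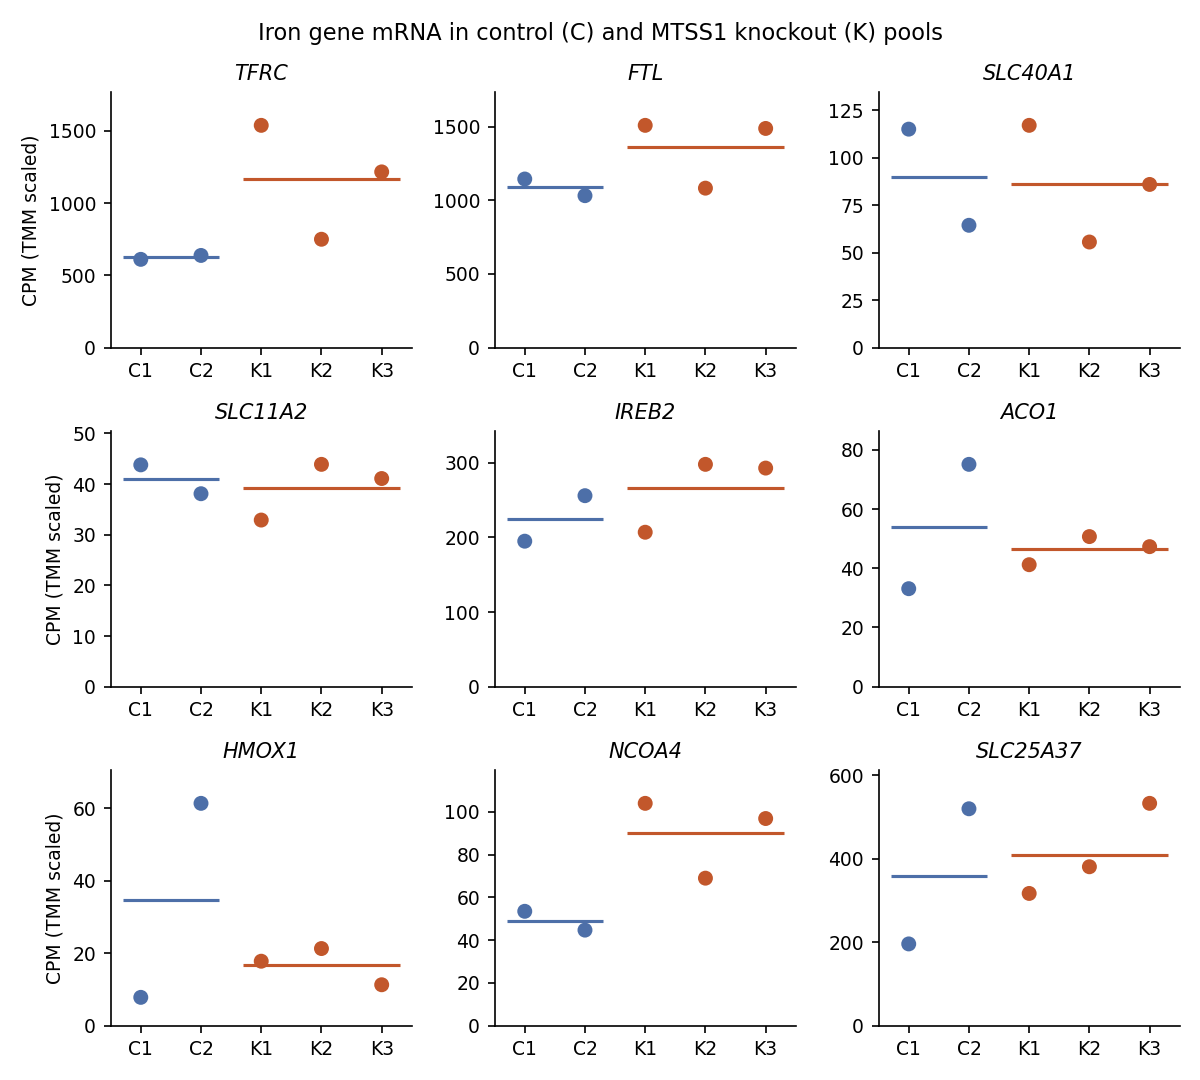
Level of the 9 tested members in CPM (TMM scaled, linear axes from 0) in the control pools C1 and C2 (blue) and knockout pools K1 to K3 (orange), with points for libraries and lines for group means. *TFRC* and *NCOA4* are the 2 genes with all 3 knockout points above both control points, and in *HMOX1* the controls at 7.82 and 61.4 CPM enclose all knockout points.

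*TFRC* (ENSG00000072274, chr3:196012511-196082153, minus strand) encodes the transferrin receptor and holds the 4 matches in the 3′ UTR shown above. It stood at 611 and 638 CPM in control pools 1 and 2 and at 1538, 750 and 1216 CPM in knockout pools 1, 2 and 3. The groups did not overlap, the control pools were close to each other, and knockout pool 2 lay nearer to the controls than to knockout pool 1. The mean was 624 ± 19.2 CPM in the control (SD, n = 2) and 1168 ± 396 CPM in the knockout (SD, n = 3). This log2-fold change of 0.90 ± 0.39 (SE; 95% interval 0.03 to 1.77) did not pass (adjusted p = 0.199, edgeR). The order of the 5 libraries in *TFRC* was also their order in depth and in the share of ribosomal protein counts. With all libraries thinned to the smallest total the log2-fold change was 0.89. Thinning leaves a gene's expected share of the counts unchanged, so this value does not address what else differs with depth. The part of depth and of the ribosomal share in the value was not tested.

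*SLC11A2* (ENSG00000110911, chr12:50979401-51028566, minus strand) encodes DMT1, which moves iron out of the endosome into the cytosol. Its level was 43.8 and 38.1 CPM in the controls and 32.9, 43.9 and 41.1 CPM in knockout pools 1, 2 and 3. The groups overlapped, and all 5 pools lay within a narrow range. The log2-fold change was -0.06 ± 0.29 (SE), with a 95% interval of -0.72 to 0.60 (adjusted p = 0.926, edgeR), which leaves out a change of 1 on the log2 scale in either direction. Its sign turned to 0.05 without control pool 1 and to 0.04 without knockout pool 1.

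*FTH1* (ENSG00000167996, chr11:61959718-61967634, minus strand), the heavy chain of ferritin that oxidizes iron, had 0 and 2 counts in the control libraries and 1 count in each of the 3 knockout libraries. These counts lie under a floor of 3 counts, which stands for 0.389 to 0.938 CPM depending on the library, so *FTH1* was not tested, and neither a fold nor a heavy to light chain ratio is given. Floors and counting intervals cover counting error only. The light chain of the same shell stood at 1031 to 1508 CPM. Whether the *FTH1* row follows the level of its mRNA was not tested.

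The annotation around the 3′ end of *FTH1* and its gene copies were looked up beside these counts. The last 500 bases of its canonical transcript are covered to 100% by exons of *BEST1*, an ion channel gene on the opposite strand, when all *BEST1* transcripts are counted. *BEST1* had 0 and 7 counts in the controls and 12, 1 and 2 in knockout pools 1, 2 and 3, so that row was low as well. For 487 protein-coding genes, exons of the opposite strand covered at least 95% of the last 500 bases. Of these, 8.83% had at most 3 counts in every library. The share was 10.1% for 12447 protein-coding genes with no exon of another gene there on either strand. The median of the genes' mean counts was 28 for the covered and 65.8 for the uncovered genes. Of the 451 windows of 50 bases (the read length) in the last 500 bases of *FTH1*, 19.5% occurred identically in at least 1 of its annotated pseudogenes, and reads without a unique position were removed before counting. The 13 *FTH1* pseudogenes with a row together had 72 and 118 counts in the controls and 209, 145 and 168 in the knockouts. The part of overlap and copies in the near absence of *FTH1* counts was not tested.

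**Figure D2:**
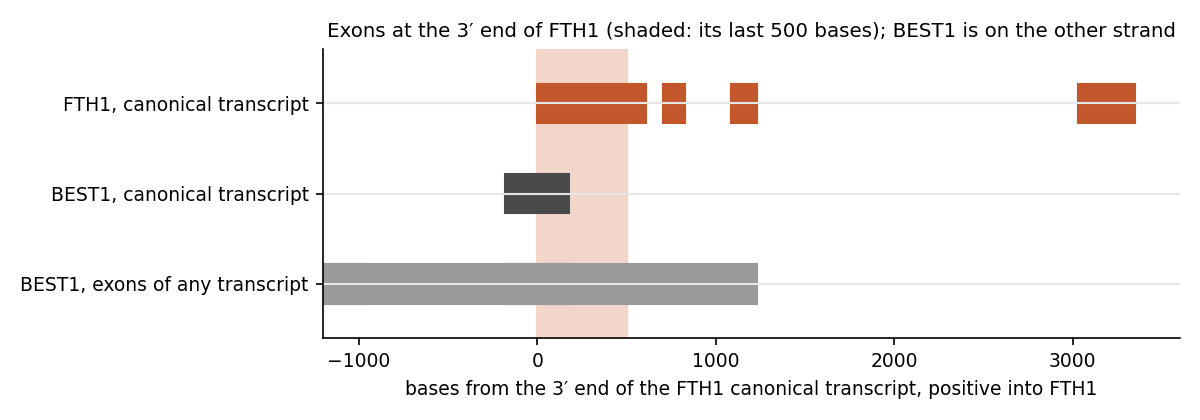
Exons around the 3′ end of the canonical *FTH1* transcript, with distance from that end in bases on the horizontal axis (positive into *FTH1*), *FTH1* in orange, *BEST1* in dark grey (canonical transcript) and light grey (any transcript), and the last 500 bases shaded. The shaded bases are covered to 100% by *BEST1* exons of the opposite strand once all its transcripts are counted.

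*FTL* (ENSG00000087086, chr19:48965309-48966879, plus strand), the light chain that helps iron to form a core, had 1144 and 1031 CPM in the controls and 1508, 1082 and 1487 CPM in knockout pools 1, 2 and 3. Knockout pools 1 and 3 stood above both controls, and pool 2 fell between them. The log2-fold change was 0.32 ± 0.34 (SE; 95% interval -0.44 to 1.09, adjusted p = 0.618, edgeR). *FTL* has 19.7% of its end windows in common with pseudogenes, whose 8 rows held 9 and 6 counts in the controls and 113, 34 and 30 in the knockouts, and adding these rows gave 0.33. With GC and length offsets the value was 0.02, and with library size alone it was 0.17.

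The receptor was set against ferritin within each library, which does not depend on scaling between libraries. Counts of *TFRC* over those of *FTH1* and *FTL* together were 0.534 and 0.618 in the controls and 1.02, 0.693 and 0.818 in knockout pools 1, 2 and 3. All 3 knockout ratios lay above both control ratios. As for *TFRC* alone, the order of the 5 libraries in the ratio was also their order in depth and ribosomal share. The part of either in the ratio was not tested. On the log2 scale the mean was -0.80 ± 0.15 in the control (SD, n = 2) and -0.26 ± 0.28 in the knockout (SD, n = 3), a difference of 0.54, for which the exact two-sided permutation test gave p = 0.2, the smallest value that 10 splits of 5 libraries allow. The ratio rests on the light chain, as *FTH1* adds at most 2 counts to it.

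*NCOA4* (ENSG00000266412, chr10:46005088-46030623, minus strand) is the receptor that brings ferritin to lysosomes, where its iron is released. Its level was 53.5 and 44.7 CPM in the controls and 104, 69 and 96.9 CPM in knockout pools 1, 2 and 3. The groups did not overlap, and as for *TFRC* knockout pool 2 lay closest to the controls. The mean was 49.1 ± 6.2 CPM (SD, n = 2) against 90 ± 18.5 CPM (SD, n = 3). The log2-fold change of 0.87 ± 0.31 (SE; 95% interval 0.17 to 1.58) did not pass (adjusted p = 0.134, edgeR). The value was 1.02 without control pool 1 and 0.78 without control pool 2. A pseudogene row of *NCOA4* held 25 and 95 counts in the controls and 63, 46 and 41 in the knockouts, with 0% of windows in common, and adding it lowered the log2-fold change to 0.54.

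*SLC40A1* (ENSG00000138449, chr2:189560590-189583758, minus strand) encodes ferroportin, the exporter of iron. It stood at 115 and 64.4 CPM in the controls and at 117, 55.6 and 85.9 CPM in knockout pools 1, 2 and 3. Both groups spanned nearly the same range, with control pool 1 beside knockout pool 1 and control pool 2 beside knockout pool 2. The log2-fold change was -0.05 ± 0.39 (SE; 95% interval -0.92 to 0.82, adjusted p = 0.954, edgeR), 0.44 without control pool 1, -0.38 without control pool 2 and 0.24 without knockout pool 2.

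**Figure D3:**
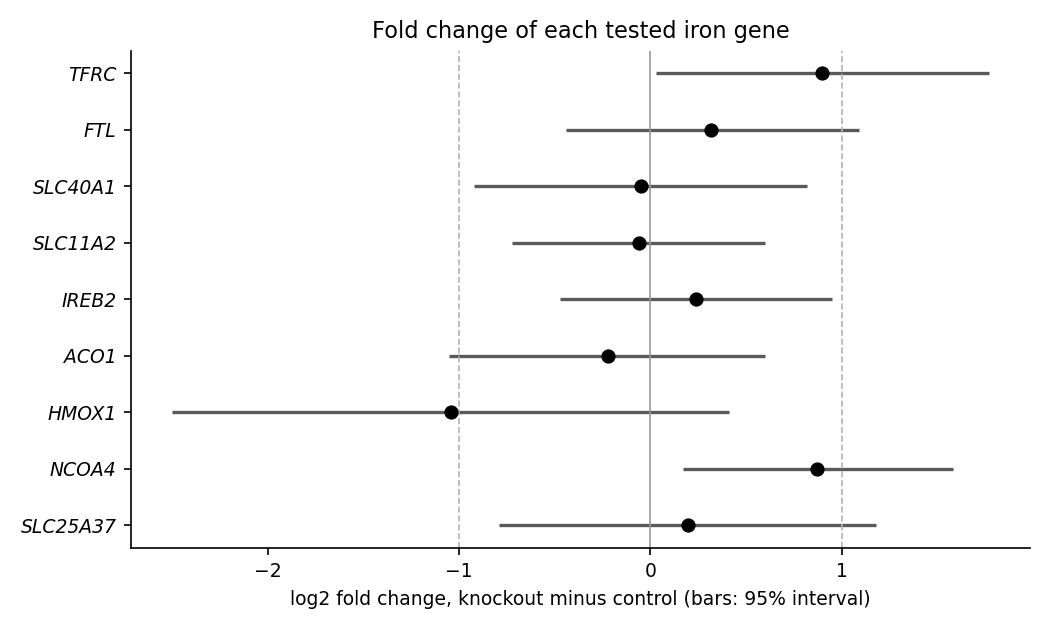
Log2-fold change, knockout minus control, of the 9 tested members (points, edgeR) with 95% intervals (bars), and dashed lines at the fold threshold of 1 and -1. The intervals of *TFRC* (0.03 to 1.77) and *NCOA4* (0.17 to 1.58) lie above 0, and that of *HMOX1* (-2.50 to 0.41) is the widest of the 9.

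*IREB2* (ENSG00000136381, chr15:78437431-78501453, plus strand) encodes IRP2, which is degraded when iron is plentiful. Its level was 195 and 256 CPM in the controls and 207, 298 and 293 CPM in knockout pools 1, 2 and 3. Pools 2 and 3 of the knockout were above both controls and pool 1 was between them. Its log2-fold change was 0.24 ± 0.32 (SE; 95% interval -0.47 to 0.95, adjusted p = 0.699, edgeR), and it was 0.07 without control pool 1 and 0.47 without control pool 2.

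*ACO1* (ENSG00000122729, chr9:32384603-32454769, plus strand) encodes IRP1, which is a cytosolic aconitase while it holds an iron-sulfur cluster and binds IREs when it has lost it. It had 33.1 and 75.1 CPM in the controls and 41.2, 50.7 and 47.3 CPM in knockout pools 1, 2 and 3. All knockout pools were between the controls and close to each other. Its log2-fold change was -0.22 ± 0.37 (SE; 95% interval -1.05 to 0.60, adjusted p = 0.765, edgeR), with -0.68 without control pool 1 and 0.51 without control pool 2. In CPM the mRNA of IRP2 stood above that of IRP1 in every library.

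*HMOX1* (ENSG00000100292, chr22:35380361-35394214, plus strand), the inducible heme oxygenase that frees iron from heme, stood at 7.82 CPM in control pool 1 and 61.4 CPM in control pool 2. Knockout pools 1, 2 and 3 had 17.8, 21.3 and 11.3 CPM. The controls thus differed 7.85-fold from each other, and every knockout pool was between them. The log2-fold change was -1.04 ± 0.65 (SE; 95% interval -2.50 to 0.41, adjusted p = 0.374, edgeR). It was -1.86 and passed the test without control pool 1 (adjusted p = 0.0224, edgeR), the lone control then being assumed to vary like the knockouts, and it turned to 1.13 without control pool 2 (adjusted p = 0.203, edgeR).

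*SLC25A37* (ENSG00000147454, chromosome 8, plus strand) encodes mitoferrin-1, which carries iron into the mitochondria of erythroid cells. It stood at 196 and 520 CPM in the controls and at 317, 381 and 533 CPM in knockout pools 1, 2 and 3. Knockout pools 1 and 2 were between the controls, and pool 3 was level with control pool 2. Its log2-fold change was 0.20 ± 0.44 (SE; 95% interval -0.79 to 1.18, adjusted p = 0.83, edgeR). It was -0.33 without control pool 1, 1.09 without control pool 2 and -0.02 without knockout pool 3.

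The spread between the control pools thus differed among the members. *HMOX1*, *SLC25A37* (2.65-fold) and *ACO1* (2.27-fold) were more than 2-fold higher in control pool 2 than in pool 1, which held for 13.5% of all tested genes, and 0 members were more than 2-fold lower. *TFRC* (1.04), *FTL* (0.901), *SLC11A2* (0.871) and *NCOA4* (0.836) were nearly level in the controls by the ratio of pool 2 to pool 1. *IREB2* (1.31) and *SLC40A1* (0.561) lay between. Over all tested genes the median absolute log2 difference between the control pools was 0.59.

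**Figure D4:**
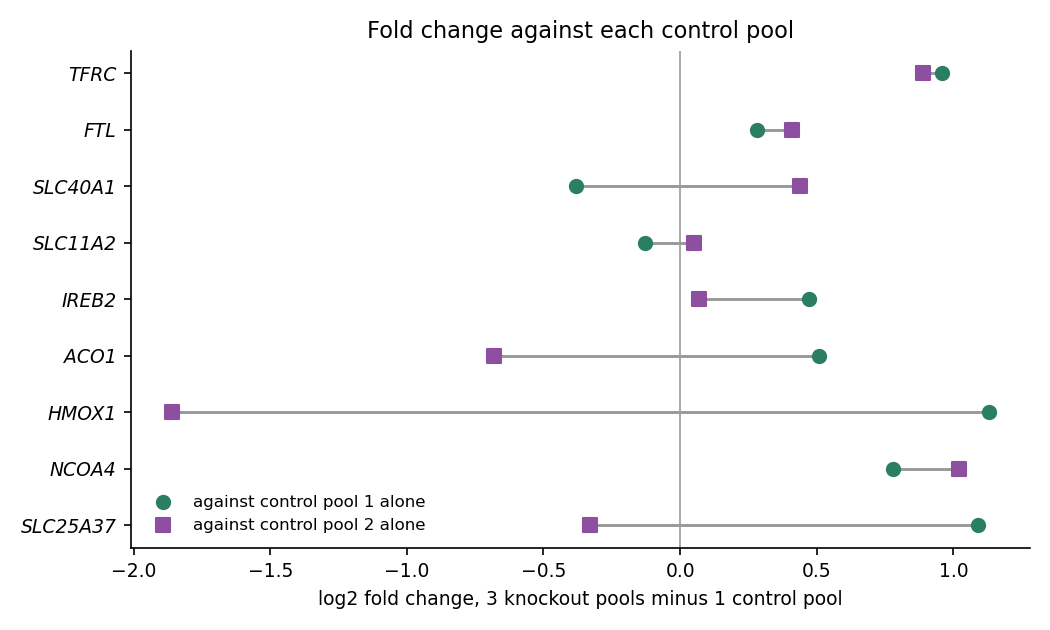
Log2-fold change of the 9 tested members from edgeR fits of the 3 knockout pools against control pool 1 alone (green circles) or control pool 2 alone (purple squares), joined by a line for each gene. *TFRC* (0.96 and 0.89) and *NCOA4* (0.78 and 1.02) are above 0 in both fits, while *HMOX1* runs from 1.13 to -1.86.

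The other genes of iron handling were taken from 7 lists of 72 symbols, of which 64 had a row and 56 were tested. 2 of the 56 passed, both higher in the knockout, against 5.18% of all tested genes, and 0 passed as lower. At an unadjusted p under 0.05, 7 were higher and 2 lower, against 23.3% of all tested genes in either direction. The median log2-fold change was -0.00, with 28 genes above and 28 below 0. DESeq2 called 3 and limma-voom 2 of these genes.

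*NFS1*, the mitochondrial cysteine desulfurase that supplies sulfur for iron-sulfur clusters, rose from 5.94 and 3.58 CPM in the controls to 24.3, 20.9 and 24.9 CPM in knockout pools 1, 2 and 3. The knockout pools were close to each other and far above both controls, with a log2-fold change of 2.29 ± 0.39 (SE, adjusted p = 0.0159, edgeR). The control values rest on low counts, 19 and 12, against 187, 116 and 143 counts in knockout pools 1, 2 and 3. *MAFG*, a small MAF protein that pairs with NRF2 or BACH1 at genes such as *HMOX1*, rose from 10.3 and 14.3 CPM to 55.6, 30.9 and 50.6 CPM, again without overlap (1.89 ± 0.38 SE, adjusted p = 0.0259, edgeR). Without knockout pool 1 neither passed (adjusted p = 0.0671 for *NFS1* and 0.097 for *MAFG*, edgeR), nor did either without knockout pool 3 (0.0554 and 0.0857), and without control pool 1 *MAFG* had an adjusted p of 0.0501. The log2-fold changes in these fits were 2.26 and 2.29 for *NFS1* and 1.71, 1.84 and 1.69 for *MAFG*. As for *TFRC*, the order of the libraries in *MAFG* was also their order in depth and in the share of ribosomal protein counts. The part of either in the *MAFG* value was not tested.

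Among the 18 tested genes of mitochondrial iron and iron-sulfur assembly, *NFS1* was the 1 that passed, 14 had a log2-fold change above 0, and the median was 0.22, while 6952 of all 14391 tested genes were above 0 and 5.18% passed. In the list of heme breakdown and its regulators, 1 of 9 (*MAFG*) passed and the median was -0.41. The heme transporter *SLC48A1*, named after its values were seen, stood at 141 and 145 CPM in the controls and 52.5, 68.6 and 80.7 CPM in the knockouts. It did not pass by edgeR (log2-fold change -1.09 ± 0.29 SE, adjusted p = 0.0628), but passed by DESeq2 (-1.11, adjusted p = 0.0202). It passed by edgeR with GC and length offsets (-1.23, adjusted p = 0.026), with the pool number as a replicate block (-1.25, adjusted p = 0.0461) and with both (-1.32, adjusted p = 0.0356). It did not pass by limma-voom (adjusted p = 0.0636). By edgeR it did not pass with library size alone (adjusted p = 0.0579), RLE size factors (0.0609) or thinning (0.0934). The same held with no filter on low counts (0.121) or at least 10 counts in every library (0.0723). Without knockout pool 1, 2 or 3 it did not pass either (adjusted p = 0.152, 0.181 and 0.157, edgeR).

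In the other 5 lists 0 genes passed by the main edgeR fit, by DESeq2 or by limma-voom. Genes with the lowest unadjusted p-values of each list are given by name. Of 8 genes of the transferrin cycle and other uptake, 1 was under an unadjusted p of 0.05, *SNX3*, which recycles the transferrin receptor (0.73 ± 0.32 SE, adjusted p = 0.201, edgeR), followed by the siderophore-binding *LCN2* (-0.80 ± 0.54 SE). *SNX3* stood at 215 and 228 CPM in the controls and 453, 351 and 302 CPM in the knockouts. Of 3 genes of storage and cytosolic chaperones, 0 were under 0.05, with the iron-sulfur glutaredoxin *GLRX3* at 0.58 ± 0.31 and the ubiquitin ligase *HERC2*, which acts on NCOA4, at -0.09 ± 0.31 (SE).

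Of 4 genes of export and hormone, 0 were under an unadjusted p of 0.05, with the porphyrin exporter *ABCG2* at -1.35 ± 0.67 and the heme exporter *FLVCR1* at -0.49 ± 0.40 (SE). *ABCG2*, at 3.44 and 19.7 CPM in control pools 1 and 2, was at -2.10 and passed without control pool 1 (adjusted p = 0.0377, edgeR) and at 0.43 without control pool 2, and *FLVCR1* was at -0.96 and 0.26. Of 6 genes of IRP regulation and other IRE mRNAs, 0 were under 0.05, with the hypoxia factor *EPAS1* at -0.65 ± 0.38 (SE). Of 8 NRF2 targets outside iron, 2 were, the quinone reductase *NQO1* at 1.39 ± 0.48 and the exporter *ABCC1* at -0.98 ± 0.41 (SE, adjusted p = 0.125 and 0.186, edgeR). *NQO1* stood at 15.9 and 6.85 CPM in control pools 1 and 2 and at 43.5, 19.3 and 26.3 CPM in knockout pools 1, 2 and 3. Its log2-fold change was 2.13 without control pool 1 and 0.93 without control pool 2. *NQO1* passed by edgeR with no filter on low counts and with the pool number as a replicate block. The erythroid heme synthesis enzyme *ALAS2*, another mRNA with a well-known 5′ UTR element, had 20.9 and 42.9 CPM in the controls and 20.5, 8.12 and 43.3 CPM in the knockouts, in which the groups overlapped.

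**Figure D5:**
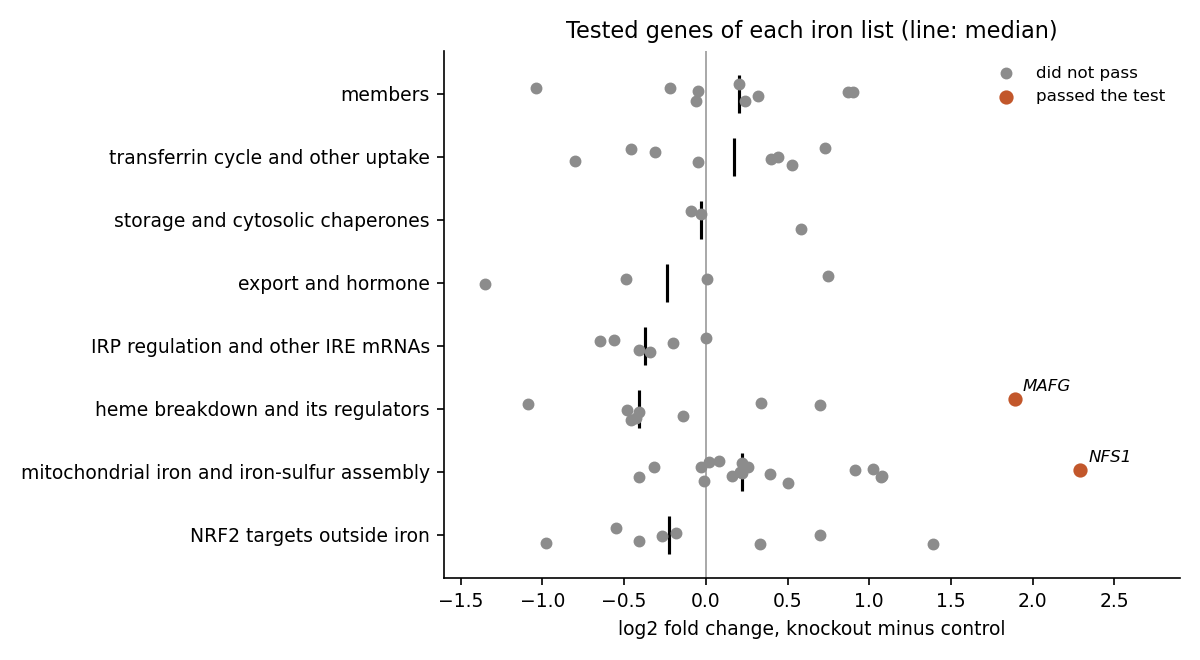
Log2-fold change, knockout minus control (edgeR), of the tested genes of the 10 members and of 7 further lists, with orange points for genes that passed the test, grey points for the rest and black lines for list medians. *NFS1* (2.29) and *MAFG* (1.89) are the 2 points that passed, and the medians run from -0.41 to 0.22.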

How the data were processed

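RNA of 5 TF-1 pools was sequenced with the QuantSeq 3′ mRNA kit as 50 base reads. Per the study's methods and the submitters' processing notes, the authors trimmed adapters with BBDuk, aligned reads to GRCh38 with HISAT2 2.1.0, removed non-unique alignments with SAMtools 1.10, and deposited raw counts per Ensembl gene. The counting program, annotation release, use of strand and treatment of PCR duplicates are not given in the sources used here.

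The counts were fitted in R 4.3.3 with edgeR 4.0.16 (filterByExpr, minimum count 10, TMM, quasi-likelihood F test, condition alone), which kept 14391 of 27328 genes. SEs were derived from the fold change and F statistic, and the common biological coefficient of variation was 32.2%. Calls needed a fold change beyond 1 or -1 on the log2 scale and an adjusted p under 0.05. DESeq2 1.42.0, limma-voom 3.58.1, other normalizations, filters, thinning, GC and length offsets, pseudogene rows, and each library left out were alternatives. The fits were tested on counts simulated with the common dispersion, with 200 of 14391 genes changed 4-fold. Of these 200, edgeR called 64.5%, DESeq2 59% and limma-voom 61%, with 7, 11 and 9 false calls, so changes of this size can be missed. Symbols, positions and transcripts came from GENCODE 44.

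Members and lists were chosen with earlier results of these data known. All 10 members are named. From other lists, genes are named where they passed or, where none did, by the 2 lowest unadjusted p-values, and *MTSS1* as the targeted gene. A gene that this rule names is not reported here. *SLC48A1*, *ALAS2*, *BEST1*, *TFR2*, *BLVRB*, *PCBP1* and *PCBP2* were named after their values were seen.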

Additional observations from a re-analysis of the deposited data

How the results depend on the processing

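Under the 10 or 11 alternatives per gene other than leaving out a library, 0 members passed, and *TFRC* (0.75 to 1.05), *NCOA4* (0.54 to 1.02), *IREB2*, *ACO1*, *HMOX1* and *SLC25A37* kept their sign. *SLC40A1* turned to 0.09 and *SLC11A2* to 0.09 with no filter on low counts, to 0.03 and 0.01 with at least 10 counts in every library, and *FTL* to -0.06 with the replicate block and GC and length offsets together; the cause was not tested. With single libraries left out the members' calls ran from 0 to 1 (*HMOX1* without control pool 1) and their log2-fold changes from -0.38 to 0.44 (*SLC40A1*), -0.13 to 0.05 (*SLC11A2*), -0.68 to 0.51 (*ACO1*), -1.86 to 1.13 (*HMOX1*) and -0.33 to 1.09 (*SLC25A37*), with 0.65 to 1.18 for *TFRC* and 0.75 to 1.08 for *NCOA4*. Calls in the 7 lists ran from 0 (without knockout pool 1 or 3) to 4 (without control pool 1). Over all genes, 1343 were called by DESeq2, 1374 with no filter, 499 when thinned, and 111 (without knockout pool 1) to 1349 (without control pool 1) with a library left out, among them 347 without knockout pool 2 and 191 without pool 3. The calls were 600 higher and 145 lower, but 591 and 366 with GC and length offsets and 917 and 432 without control pool 1. Scaling by library size alone shifted the all-gene median from -0.03 to -0.17. Pools share numbers that no source describes as a pairing (r = 0.172 for the differences of numbers 1 and 2 in both groups). With this number as a replicate block, 0 members and 4 list genes (*MAFG*, *NFS1*, *SLC48A1*, *NQO1*) were called, *TFRC* was at 0.78, *NCOA4* at 0.79 and *HMOX1* at -0.27. The receptor to ferritin difference was 0.55 with the block. No heavy to light ferritin ratio was computed, since *FTH1* was under the floor in its own row, and with pseudogene rows added nearly all counts would be those of the copies. The sign of 5 members differed between the fits without control pool 1 and without control pool 2. The controls held 2849979 and 3408827 counts, fewer than any knockout library.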

Other observations

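The genes *TFR2* and *BLVRB* differed between the control pools in the same direction as *HMOX1*. *TFR2*, the second transferrin receptor of erythroid cells, had 34.7 CPM in control pool 1 and 162 CPM in control pool 2, with 55.3, 65 and 94.5 CPM in knockout pools 1, 2 and 3. *BLVRB*, a reductase of the heme breakdown product biliverdin, had 126 and 737 CPM in the controls and 335, 242 and 364 CPM in the knockouts. In both genes every knockout pool was between the controls. Over the 7 lists, 8 of 56 genes were more than 2-fold higher and 5 more than 2-fold lower in control pool 2 than in pool 1, against 1936 and 1915 of 14391 tested genes.

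*PCBP1*, a chaperone that delivers iron to ferritin, had 1 count in each control library and 0, 0 and 1 in knockout pools 1, 2 and 3. The last 500 bases of its transcript are covered to 100% by exons of the antisense gene PCBP1-AS1. Its relative *PCBP2*, covered to 100% by exons of *MAP3K12* on the opposite strand, had 83.2 and 52.2 CPM in the controls and 66.9, 68.4 and 63.2 CPM in the knockouts. The part of the overlap in the counts of *PCBP1* was not tested.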
